A study of Mus musculus with 10 samples.

Results

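The 10 genes described here encode the proteins that fill and handle the small synaptic vesicle. They are the 3 vesicular glutamate transporters (Slc17a7, Slc17a6 and Slc17a8), the vesicular GABA transporter Slc32a1, the synapsins Syn1, Syn2 and Syn3, and the membrane proteins Syp, Sv2a and Sv2b. They were chosen by symbol, as the rows of a table of 22255 genes whose Ensembl identifier maps to one of these names, and all 10 were found. RNA came from hippocampal synaptoneurosomes, resealed synaptic compartments pinched off during tissue homogenization, of wild-type C57Bl/6J mice. One group of 5 libraries came from mice given vehicle. The other 5 came from mice that received AM6545 sub-chronically, a CB1 cannabinoid receptor antagonist with poor entry into the brain. Dose, age and sex are not given in the labels used here, nor is it said whether a library holds 1 animal or a pool, so p-values measure the spread between libraries, which may be technical.

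A synaptic vesicle is loaded by a transporter powered by a proton pump, and the transporter that a terminal makes decides what the terminal releases. In the adult hippocampus VGLUT1 (Slc17a7) is the glutamate transporter of pyramidal and granule cells, VGLUT2 (Slc17a6) is typical of subcortical inputs, and VGLUT3 (Slc17a8) is found in a subset of cholecystokinin interneurons. Synapsins tie vesicles to one another and to the cytoskeleton of the terminal, while synaptophysin (Syp) and the SV2 proteins are integral parts of the vesicle membrane. Most of these proteins are made in the cell body, and the RNA counted here is what the synaptic preparation held.

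Sequences are shown for Syn1, whose 2 transcripts differ in coding, and for Sv2b, whose 2 main transcripts differ in start site. Syn1 (chrX:20860511-20921004, minus strand, mm10) has 2 transcripts in GENCODE M21. Syn1-201 codes for 706 residues and Syn1-202 for 670 residues, the lengths of synapsins Ia and Ib. Bases 2115 to 2152 of Syn1-201, counted from 1 at its 5′ end, are missing from Syn1-202, and they are in capitals below with 30 bases on either side.
Syn1-201: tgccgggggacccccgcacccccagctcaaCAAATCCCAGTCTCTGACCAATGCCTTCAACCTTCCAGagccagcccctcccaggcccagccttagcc
Syn1-202: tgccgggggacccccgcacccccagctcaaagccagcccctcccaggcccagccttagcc
The 38 capital bases are not a whole number of codons, so the transcripts are read in different frames after them. The last coding base of Syn1-202 lies 5 bases before the end of the stretch printed.

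Sv2b (chr7:75114894-75309262, minus strand) has 2 main transcripts that code for the same 683 residues and differ in their first exon. Sv2b-202 starts at position 75309262 and Sv2b-201 at 75308379 of chromosome 7. The 250 bases before each start, from RefSeq on GRCm38.p6, lie on the minus strand at chr7:75309263-75309512 for Sv2b-202 and at chr7:75308387-75308636 for Sv2b-201. The RefSeq start differs from that of Sv2b-201 in GENCODE by 7 bases. No letter is in capitals, since no motif searched for was found in either stretch.
Sv2b-202: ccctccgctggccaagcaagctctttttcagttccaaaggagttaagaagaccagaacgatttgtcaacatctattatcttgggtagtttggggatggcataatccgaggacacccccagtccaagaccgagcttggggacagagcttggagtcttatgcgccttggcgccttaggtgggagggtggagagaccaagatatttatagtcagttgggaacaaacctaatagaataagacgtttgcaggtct
Sv2b-201: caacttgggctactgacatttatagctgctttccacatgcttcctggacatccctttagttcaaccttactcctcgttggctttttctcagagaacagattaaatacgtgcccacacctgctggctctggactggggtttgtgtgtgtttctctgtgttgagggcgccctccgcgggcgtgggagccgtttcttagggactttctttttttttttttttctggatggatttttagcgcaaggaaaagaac
The motifs were searched on both strands in RefSeq windows of 250 bases before to 50 after a start, of which 9 of the 10 members had 15, Syn3 having none. They were the cyclic AMP response element (TGACGTCA), the site of the CREB family of factors, and the GC box (GGGCGG), the site of the Sp family.

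Among the 15 windows only the one of Syn1 held the cyclic AMP response element, which 1.79% of 32851 mouse windows held. The GC box was in 6 of the 15 member windows, against 35.7% of all windows. The window of Sv2b-202 held 1, which begins 21 bases after the start and so outside the stretch printed above. Syn1 is printed because it had the largest group difference of the 10 genes (below). Its letters lie upstream of both annotated starts, at chrX:20921005-20921168 on the minus strand of GRCm38.p6. Capitals mark the cyclic AMP response element, which begins 159 bases before the RefSeq start.
Syn1: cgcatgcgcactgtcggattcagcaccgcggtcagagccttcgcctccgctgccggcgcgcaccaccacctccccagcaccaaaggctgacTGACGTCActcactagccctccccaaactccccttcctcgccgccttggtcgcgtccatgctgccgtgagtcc
The match describes letters in a window, and no binding was measured.

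Library totals ran from 18106112 to 25899794 estimated counts. All genes of the 15 cell type lists were found above 3 counts in at least 1 library, so glial, vascular and choroid plexus RNA was present beside neuronal RNA. The summed oligodendrocyte markers were 12230 to 28202 CPM (counts scaled to each library total), highest in AM6545 library 3, and the 7 excitatory neuron markers 1804 to 2052 CPM. Choroid plexus markers ran from 61.9 CPM in vehicle library 4 to 5062 in vehicle library 1. The share of a cell type and its RNA per cell cannot be told apart in such bulk samples.

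The 10 genes fell into an abundant set of 6 and a rare set of 4. Levels between genes were compared per transcript length, as counts over length, scaled to the same sum in every library over all transcripts with a length (TPM, from full transcript lengths; mean ± SD, n = 10 libraries). Syp stood first at 1238 ± 147 TPM. Slc17a7 at 585 ± 91.8 TPM and Syn2 at 576 ± 81.7 TPM followed, and Slc17a7 was above Syn2 in 5 of 10 libraries, so their order was not resolved. Syn1 came next at 215 ± 52.1 TPM, above Sv2b in 10 of 10 libraries. Sv2b (118 ± 18.9 TPM) and Sv2a (113 ± 16.0 TPM) could not be ordered, Sv2b being above in 7 of 10 libraries.

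The other 4 genes were far lower. Slc17a6 was at 9.37 ± 1.97 TPM. The ratio of Sv2a, the gene above it, to Slc17a6 within a library averaged 12.4 over the 10 libraries. Syn3 was at 3.13 ± 0.748 TPM, Slc32a1 at 1.55 ± 0.225 TPM and Slc17a8 at 0.703 ± 0.175 TPM. These 4 kept their order in 10 of 10 libraries and their ranges did not overlap.

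**Figure D1:**
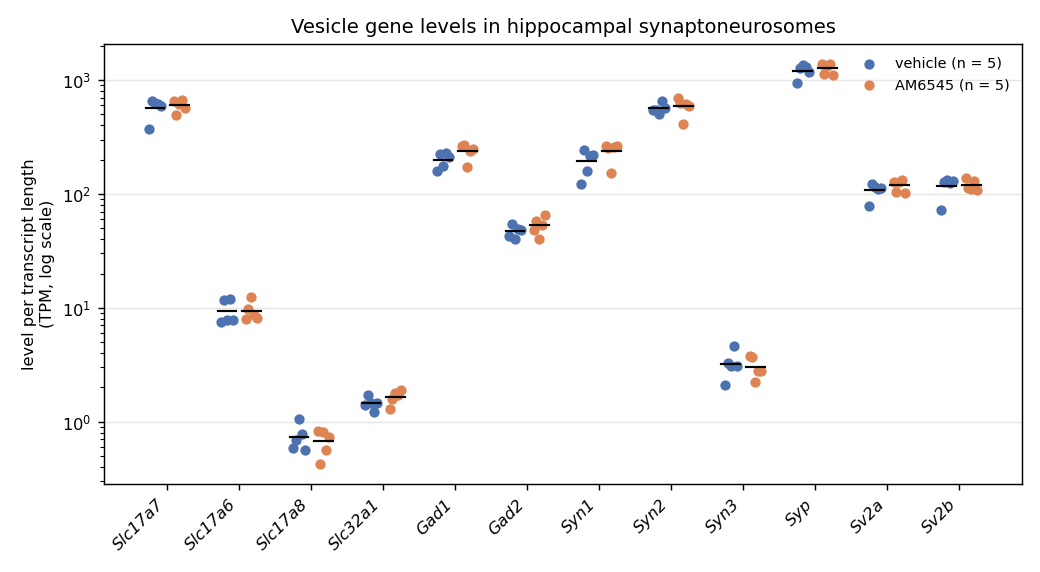
Level per transcript length in TPM (log scale) of the 10 genes and of Gad1 and Gad2. Each point is 1 library, blue for vehicle and orange for AM6545 (n = 5 each), and black bars are group means. Syp, Slc17a7 and Syn2 have means of 1238, 585 and 576, Slc32a1 and Slc17a8 of 1.55 and 0.703, and the groups overlap for each gene.

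Slc17a7 (chr7:45163949-45176142, plus strand) made up nearly all vesicular glutamate transporter RNA. Its level in CPM, which uses the deposited counts with no division by length, was 632, 885, 977, 937 and 862 in vehicle libraries 1 to 5. In AM6545 libraries 1 to 5 it was 953, 739.6, 926, 976 and 821 CPM. Vehicle library 1 and AM6545 library 2 were lowest in their groups, and the groups overlapped. Of the summed per-length level of the 3 glutamate transporters, Slc17a7 held 98.3 ± 0.351% (SD, n = 10), with a range of 97.9 to 98.7%.

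Slc17a6 (chr7:51622006-51671119, plus strand) held 1.60 ± 0.349% of that sum. It was at 18.2, 22.2, 17.2, 26.1 and 16.1 CPM in vehicle libraries 1 to 5, and at 16.6, 21.04, 27.1, 18.1 and 16.9 CPM in AM6545 libraries 1 to 5. One library in each group, vehicle 4 and AM6545 3, stood above 25 CPM. Thalamic neurons are known to use VGLUT2, and the summed thalamus markers were 71.7 to 82.2 CPM in vehicle and 81.7 to 114 CPM in AM6545 libraries. That difference had a two-sided exact permutation p of 0.0238 and a Benjamini-Hochberg adjusted p of 0.357 over 15 lists. Its part in the Slc17a6 values was not tested.

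Slc17a8 (chr10:89574020-89621253, minus strand) was the rarest of the 10, with 19 to 48 counts per library. It held 0.119 ± 0.0274% of glutamate transporter RNA. It was at 1.55, 1.42, 2.49, 1.84 and 1.28 CPM in vehicle libraries 1 to 5, and at 1.83, 0.982, 1.87, 1.29 and 1.63 CPM in AM6545 libraries 1 to 5. Vehicle library 3 was highest and AM6545 library 2 lowest, and the groups overlapped.

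Slc32a1 (chr2:158610767-158615748, plus strand), the transporter that loads GABA and glycine, was counted only 42 to 58 times per library. In CPM it was 2.28, 2.23, 2.18, 1.80 and 2.04 in vehicle libraries 1 to 5, and 1.79, 2.27, 2.59, 2.41 and 2.67 in AM6545 libraries 1 to 5. The highest value was in AM6545 library 5 and the lowest in AM6545 library 1. An exon of Gm14205 overlaps Slc32a1 on the opposite strand, and whether strand was used in counting is not stated.

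The ratio of glutamate to GABA transporter RNA was computed in each library as the summed per-length level of the 3 glutamate transporters over that of Slc32a1. It was 272, 390.5, 440.1, 512 and 413 in vehicle libraries 1 to 5. It was 522, 319.7, 353, 396 and 301 in AM6545 libraries 1 to 5. The lowest ratio was in vehicle library 1, the highest in AM6545 library 1, and the groups overlapped. On the log2 scale the vehicle mean was 8.63 ± 0.338 and the AM6545 mean 8.53 ± 0.314 (SD, n = 5 per group). The difference of -0.10 was smaller than the SD of either group (two-sided exact permutation p = 0.651, Benjamini-Hochberg adjusted p = 0.905 over 11 ratios). The smallest exact permutation p that 5 against 5 libraries allow is 0.00794, so a single ratio could not pass alone after adjustment over 11.

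By these estimates, RNA of the enzymes that make GABA was much more abundant than that of its transporter, which rests on 42 to 58 counts per library. Whether the opposite-strand overlap lowers the Slc32a1 estimate, here and in the transporter ratio, was not tested. Gad1 was at 218 ± 38.8 TPM and Gad2 at 50.1 ± 8.18 TPM per length (SD, n = 10), so Gad1 was close to Syn1 in level. The Gad1 level was 97.2 to 205 times that of Slc32a1, with a median of 135. The ratio of Slc32a1 to Gad1 plus Gad2 differed between the groups by -0.06 on the log2 scale, within the spread of the libraries (exact permutation p = 0.778, adjusted p = 0.905). Gad1 to Gad2 was steadier, at 3.70 to 5.45. Slc32a1 counts did not vary beyond counting error in a Poisson chi-square test (p = 0.396), so its low count limits this comparison of steadiness.

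**Figure D2:**
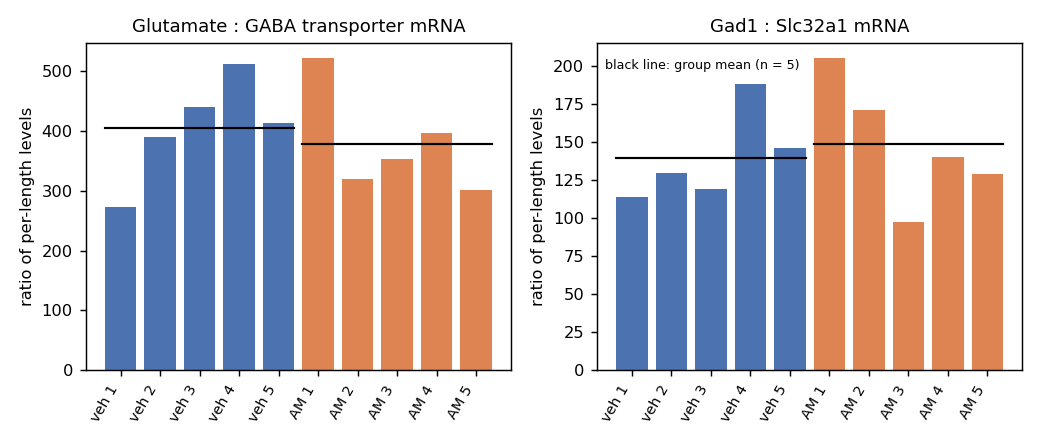
Ratios of per-length levels in each library, for the 3 glutamate transporters over Slc32a1 on the left and Gad1 over Slc32a1 on the right. Bars are single libraries (veh, vehicle; AM, AM6545) and black lines are group means. The transporter ratio runs from 272 to 522 and the Gad1 ratio from 97.2 to 205, with overlapping groups in both.

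Syn1 showed the largest difference between the groups among the 10, and it did not pass the test. Its CPM values were 234, 368, 276, 367 and 359.9 in vehicle libraries 1 to 5, and 426, 426, 257, 428 and 421 in AM6545 libraries 1 to 5. AM6545 libraries 1, 2, 4 and 5 were above every vehicle library, and AM6545 library 3 was below all but 1 of them. The log2 fold change was 0.29 (SE 0.15, 95% interval -0.04 to 0.61), with an unadjusted p of 0.0815 and a Benjamini-Hochberg adjusted p of 0.9998 in edgeR's quasi-likelihood test. Araf exons overlap Syn1 on the opposite strand.

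Syn2 (chr6:115134902-115282006, plus strand) was the main synapsin message. It was at 919, 749, 789, 1024 and 851 CPM in vehicle libraries 1 to 5 and at 1036, 969, 643, 928 and 876 CPM in AM6545 libraries 1 to 5. AM6545 library 3 was lowest. That library was also the lowest of its group for Syn1 and Syn3, and it had the highest oligodendrocyte sum (28202 CPM) and the highest red blood cell sum (1334 CPM); the part of these in the synapsin values was not tested. Per length, Syn2 was 2.21 to 4.42 times Syn1, with the highest ratio in vehicle library 1. The log2 ratio of Syn1 to Syn2 differed by 0.27 between the groups, the smallest p of the 11 ratios (exact permutation p = 0.151, adjusted p = 0.905). Without vehicle library 1 this difference was 0.13.

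Syn3 (chr10:86055125-86498896, minus strand), the synapsin found mainly early in development, was rare, with 50 to 139 counts per library. Per length it was 0.00314 to 0.00526 of the sum of Syn1 and Syn2. It was at 2.82, 3.36, 3.16, 5.69 and 3.61 CPM in vehicle libraries 1 to 5, and at 4.35, 4.34, 2.76, 3.29 and 3.16 CPM in AM6545 libraries 1 to 5. Vehicle library 4 stood above the others.

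Syp (chrX:7638471-7653256, plus strand) was the most even of the 10 across libraries. It was at 1427, 1546, 1856, 1798 and 1515 CPM in vehicle libraries 1 to 5, and at 1789, 1529, 1811, 1813 and 1416 CPM in AM6545 libraries 1 to 5. The highest library was 1.31 times the lowest. Over the 2047 genes with a mean of at least 100 CPM, this factor had a median of 1.47 and a 90th percentile of 1.82. Syn1, at 1.83, was just past that percentile, while Slc17a7 was at 1.54.

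Sv2a (chr3:96181151-96195521, plus strand), the protein to which the antiseizure drug levetiracetam binds, was at 199.6, 245, 265, 254 and 245 CPM in vehicle libraries 1 to 5. It was at 274, 233, 289, 293 and 220.1 CPM in AM6545 libraries 1 to 5. Sv2b was at 228, 317, 382, 353 and 351 CPM in vehicle libraries 1 to 5 and at 373, 317, 314, 357 and 293 CPM in AM6545 libraries 1 to 5. Vehicle library 1 was lowest for both. The Sv2a to Sv2b ratio per length ran from 0.864 to 1.15, and its log2 mean differed by 0.08 between the groups (exact permutation p = 0.341, adjusted p = 0.905).

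AM6545 was tested against vehicle in edgeR over 14358 genes that passed a filter on low counts, and all 10 members passed it. None of the 10 had an adjusted p under 0.05, in a comparison in which 0% of all genes did, and none had an unadjusted p under 0.05, where 1.88% of all genes did (270 genes). DESeq2 and limma-voom also called 0 genes, with 276 and 261 at an unadjusted p under 0.05. None of the 10 had groups that did not overlap, against 0.293% of all genes. The log2 fold change was above 0 for 7 members and below 0 for 3, with a median of 0.04 and a range of -0.17 to 0.29. Over all tested genes the median was -0.01 and 48.1% were above 0.

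The intervals of the abundant members bound how large a difference the data allow. For Slc17a7 the log2 fold change was 0.04 with a 95% interval of -0.22 to 0.30, which is 0.857-fold to 1.23-fold. For Syp it was 0.04 (-0.20 to 0.28), for Syn2 0.04 (-0.23 to 0.31), for Sv2a 0.12 (-0.11 to 0.35) and for Sv2b 0.02 (-0.25 to 0.29). Syn1, though abundant, had a wider interval of -0.04 to 0.61, which is 0.973-fold to 1.53-fold. The rare members were bounded less tightly than the other abundant ones. Slc32a1 had a log2 fold change of 0.15 (-0.24 to 0.55), Slc17a6 of -0.0046 (-0.34 to 0.33), Slc17a8 of -0.17 (-0.70 to 0.37) and Syn3 of -0.06 (-0.50 to 0.38).

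**Figure D3:**
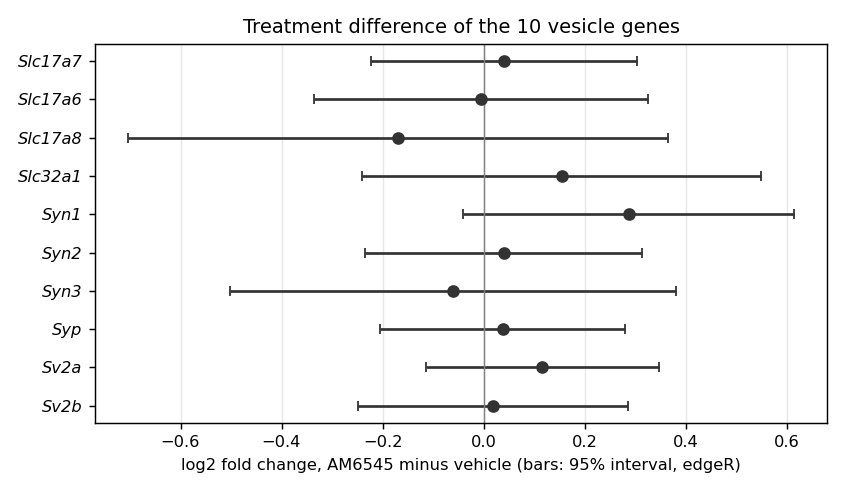
Log2 fold change of the 10 genes, AM6545 minus vehicle, from edgeR. Points are estimates, bars 95% intervals, and the grey line marks no difference (n = 5 libraries per group). Each interval includes 0, and Syn1 has the highest estimate at 0.29.

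The transcripts of the 10 genes were examined by their share of the gene's per-length level. Syn1 was split evenly, Syn1-202 holding 50.8% and Syn1-201, which contains the 38 bases printed above, 49.2% on average. The Syn1-201 share was 53.6, 44.0, 48.1, 52.0 and 51.2% in vehicle libraries 1 to 5, and 51.2, 49.9, 42.8, 51.9 and 47.7% in AM6545 libraries 1 to 5. The groups differed by -1.11 percentage points (exact permutation p = 0.611, adjusted p = 0.917 over 15 transcripts).

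Syn2-201, which codes for 586 residues, held 39.7% of Syn2 on average. Syn2-205, annotated as a retained intron, held 29.1%, with a range of 27.1 to 32.5%, and Syn2-203, which codes for 479 residues, held 21.9%. Syn2-205 had the smallest p among the shares, with a vehicle mean of 30.3 ± 2.08% and an AM6545 mean of 27.9 ± 1.01% (SD, n = 5 per group; exact permutation p = 0.0714, adjusted p = 0.667). Syn2-202 and Syn2-203 have the same coding sequence and differ only by 48 bases at the 5′ end. The estimated share of Syn2-202 in the pair ran from 3.85% in vehicle library 1 to 48.3% in AM6545 library 5, while the 2 together held 24.9 to 33.3% of Syn2. Timp4 exons overlap Syn2 on the opposite strand.

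The estimated shares of the 2 main Sv2b transcripts, which differ in start site, varied widely from library to library. Start sites were not measured. The transcripts code for the same 683 residues, so only reads outside the coding sequence can tell them apart. Sv2b-202, from the upstream start, held 25.5, 41.5, 43.2, 44.1 and 61.0% of Sv2b in vehicle libraries 1 to 5. It held 51.5, 50.2, 47.4, 51.3 and 67.2% in AM6545 libraries 1 to 5. Vehicle library 1 was the lowest and AM6545 library 5 the highest, and vehicle library 5 was above 4 AM6545 libraries. The vehicle mean was 43.1 ± 12.6% and the AM6545 mean 53.5 ± 7.82% (SD, n = 5 per group), a difference within the spread (exact permutation p = 0.175, adjusted p = 0.667). The difference of 10.5 percentage points was 6.09 without vehicle library 1 and 15.0 without vehicle library 5. In the latter case the adjusted exact permutation p was 0.0595. Vehicle library 5 was the only vehicle library above any AM6545 library, so leaving it out separates the groups. The adjustment also counts the mirrored Sv2b-201 share as another test of the same difference. No support is drawn from that p. Choroid plexus markers were highest in vehicle library 1 (5062 CPM) and next highest in AM6545 library 5 (4014 CPM), the libraries at the opposite ends of the Sv2b shares; their part in the shares was not tested. Exons of 1500012K07Rik overlap Sv2b on the opposite strand, as Timp3 does Syn3 and Gm14703 does Syp.

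Syn3 also varied. Syn3-201 held 89.4, 76.9, 54.1, 90.1 and 78.4% of it in vehicle libraries 1 to 5, and 88.9, 78.4, 98.6, 84.9 and 90.1% in AM6545 libraries 1 to 5. Vehicle library 3 was lowest, with the retained intron Syn3-204 at 35.6% there, and AM6545 library 3 highest. The Syn3-201 means differed by 10.4 percentage points, within the spread (exact permutation p = 0.198, adjusted p = 0.667), and by 4.50 without vehicle library 3; Syn3 has 50 to 139 counts per library.

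The other members were carried by 1 transcript or nearly so. Slc17a7-201 held 97.8% of its gene, Syp-201, Sv2a-201 and Slc17a6-201 each more than 99.7% on average, and Slc32a1-201 and Slc17a8-201 held 100%. Of the 43 transcripts of the 10 genes, 21 passed the filter on low counts, and none had an adjusted or an unadjusted p under 0.05 in edgeR. Over all 31848 transcripts tested, 0.00314% (1 transcript) passed the adjusted and 1.97% the unadjusted threshold, 1.1% being higher and 0.873% lower in AM6545. None of the 21 had groups that did not overlap, against 0.575% of all transcripts. The 2 member transcripts of smallest p were Syp-205 and Syn1-202, each with a Benjamini-Hochberg adjusted p of 0.9999 in edgeR.

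**Figure D4:**
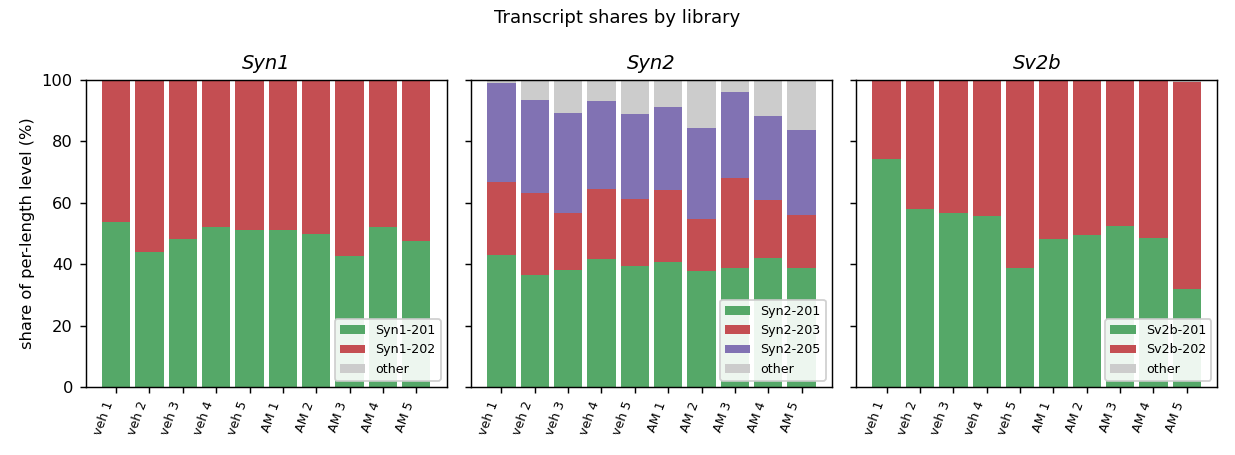
Share of each gene's per-length level held by its main transcripts, in percent, for Syn1, Syn2 and Sv2b. Each stacked bar is 1 library (veh, vehicle; AM, AM6545), and grey is the sum of the other transcripts. Syn1 stays near an even split, while the Sv2b-202 share runs from 25.5% to 67.2%.

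Across the 10 libraries, pairs among Slc17a7, Syp, Sv2a and Sv2b varied together. Of 45 pairs, 4 had a Benjamini-Hochberg adjusted permutation p under 0.05 by both Pearson's r and Spearman's rho, and all 4 were positive. Slc17a7 with Sv2b had r = 0.88 and rho = 0.88 (adjusted p = 0.0264 and 0.0245), and Slc17a7 with Sv2a had r = 0.88 and rho = 0.87 (adjusted p = 0.0127 and 0.0245). Syp with Sv2a had r = 0.88 and rho = 0.88 (adjusted p = 0.0127 and 0.0245), and Slc17a7 with Syp had r = 0.81 and rho = 0.89 (adjusted p = 0.0127 and 0.0245). Without the 2 libraries farthest from the median of the first gene, r was 0.763 to 0.962 over these pairs. Over the 14357 other tested genes, the 99th percentile of r with Slc17a7 was 0.902, above its r with Sv2b, Sv2a and Syp. Many other genes thus followed Slc17a7 more closely, and the permutation p measures departure from independence only.

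Vehicle library 1, the lowest for 3 of these 4 genes and the highest in choroid plexus markers, bore on these relations. Without it, r was 0.68 for Slc17a7 with Sv2b, 0.78 for Slc17a7 with Sv2a, 0.87 for Syp with Sv2a and 0.82 for Slc17a7 with Syp, and 0 of 45 pairs passed the adjusted threshold by both measures. The correlations of Slc17a7 with the synapsins did not pass. Slc17a7 had r = 0.29 with Syn1 (rho = 0.18, adjusted permutation p = 0.811 and 0.887) and r = -0.17 with Syn2 (rho = 0.03, adjusted p = 0.834 and 0.974). The lowest r of the 45 was that of Slc32a1 with Syn3, at -0.77 (rho = -0.72, adjusted p = 0.0620 and 0.171), which did not pass.

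**Figure D5:**
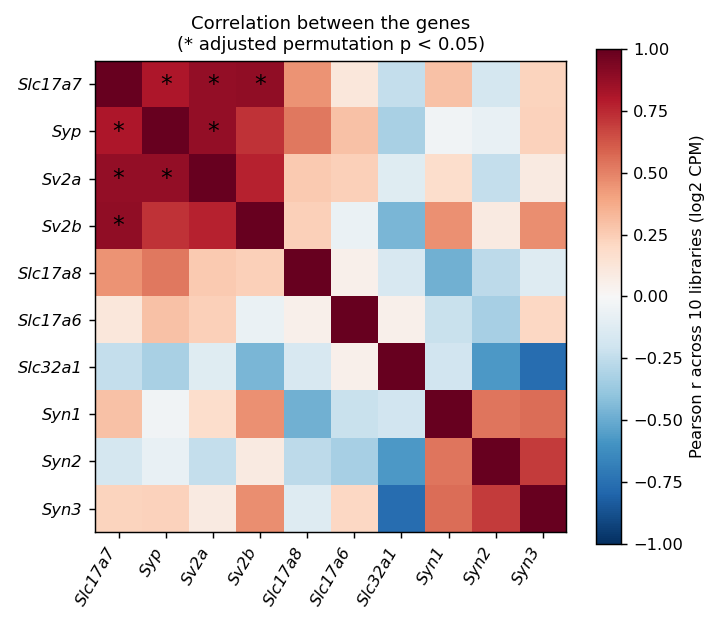
Pearson's r of log2 CPM between the 10 genes across 10 libraries, from -1 (blue) to 1 (red). Stars mark an adjusted permutation p under 0.05. The starred pairs are the 4 among Slc17a7, Syp, Sv2a and Sv2b, with r of 0.81 to 0.88.

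Over all 14357 other tested genes, those whose log2 CPM followed Slc17a7 most closely were Slc24a3 (r = 0.98), Atg9a (r = 0.98) and Tnfrsf21 (r = 0.97). For Slc32a1 they were Gas2l2 (r = 0.92), Cfap97d2 (r = 0.91) and H1fx (r = 0.89). The mean levels of these 3 were low, at 1.10, 0.668 and 2.91 CPM. Slc32a1 counts themselves did not vary beyond counting error in the Poisson test above. All the r values of this paragraph are the highest of many over 10 libraries and are given as a description.

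The other genes of the vesicle cycle showed no adjusted call either, against 0% of all genes tested. Of 27 other vesicle membrane genes, 23 were tested, and 1 had a higher and 2 a lower level at an unadjusted p under 0.05, against 1.14% and 0.738% of all genes. In this list 8 of 23 had a log2 fold change above 0, with a median of -0.03, against 48.1% of all genes. The 2 of smallest p were Slc10a4, a vesicular orphan transporter with a log2 fold change of 0.82 (SE 0.33), and Rab27b, a small GTPase of vesicle traffic, at -0.22 (SE 0.09). Slc10a4 ran from 0.893 to 1.56 CPM in vehicle and from 0.930 to 3.81 CPM in AM6545 libraries.

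All 16 subunits and accessory proteins of the proton pump that powers transmitter loading were tested. There were 0 at an unadjusted p under 0.05 in either direction, against 1.88% of all genes. Above 0 were 6 of 16 (median -0.04), against 48.1% of all genes. The 2 of smallest p were Atp6v0c at -0.16 (SE 0.13) and Atp6v1b2 at 0.16 (SE 0.15). Of the 24 genes of vesicle endocytosis, 1 was higher and 0 lower at that threshold, against 1.14% and 0.738% of all genes. A log2 fold change above 0 was found for 19, with a median of 0.06, against 48.1% of all genes. The direction of the list as a whole was not tested. That 1 gene was Ap2a1, a subunit of the clathrin adaptor, at 0.30 (SE 0.13). Dnm1, the GTPase that cuts vesicles from the membrane, was at 0.30 (SE 0.17).

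Of the 11 genes of glutamate supply and clearance, 0 passed the unadjusted threshold and 6 were above 0, with a median of 0.02. Slc38a3, a glutamine transporter, was at -0.33 (SE 0.20). Of the 7 genes of GABA synthesis and clearance, 0 passed the unadjusted threshold and 6 were above 0, with a median of 0.17. Over all tested genes, 1.88% passed that threshold and 48.1% were above 0. The direction of these lists as a whole was not tested. Slc6a11, a glial GABA transporter, was at 0.30 (SE 0.15), Gad1 at 0.23 (SE 0.12) and Gad2 at 0.16 (SE 0.12). For each pathway gene named, the groups overlapped and the Benjamini-Hochberg adjusted p was 0.9998 in edgeR's quasi-likelihood test.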

How the data were processed

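For each of 10 libraries (SMARTer Ultra Low Input kit) the deposited values are estimated counts, in 1 gene table and 1 transcript table. Salmon 1.5.2 and mm10 are named in the submitters' processing notes; annotation release and use of strand are not given in the sources used here. Symbols were matched by Ensembl identifier without version (22155 of 22255 genes), and transcript names, lengths and positions came from GENCODE M21 (101527 of 102392 transcripts); only 11 gene identifiers carried the version of that release.

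Expected counts were rounded and tested with edgeR 4.0.16 (TMM, filterByExpr with minimum count 10 and total 15, robust quasi-likelihood, group only, Benjamini-Hochberg over all features, threshold 0.05); CPM values are TMM-scaled. DESeq2 1.42.0 and limma 3.58.1 (voom) were alternatives, with other scalings, filters, a replicate block and each library left out. Ratios and shares had two-sided exact permutation tests over 252 arrangements, correlations 100000 resamples. The fit was tested on simulated data (2 runs, 200 changed genes each). It called 7% of genes changed 1.25-fold, 47% at 1.5-fold, 81% at 2-fold, 93% at 3-fold and 0.0494% of unchanged genes. Counts were simulated independently for each gene, without the shifts in cell type markers that real libraries showed. The rates may therefore be too high for these data. A lack of calls therefore does not exclude changes of 1.25-fold or 1.5-fold. At the lowest total, 3 counts are 0.166 CPM before TMM scaling. This covers counting error only, since reads were amplified without molecular identifiers.

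The members, lists and tests were chosen with earlier results of these data known. Named beside the members are the 2 genes of smallest unadjusted p in each pathway list, Gad1 and Gad2, transcripts with a mean share of at least 10%, the 2 member transcripts of smallest p, and the 3 genes most correlated with Slc17a7 and with Slc32a1. One gene that this rule names is not reported here.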

Additional observations from a re-analysis of the deposited data

Results flagged for a closer look

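A library was marked where it lay far from the rest of its group of 5 (a gap to its neighbour of more than 0.71 of the group's range). Of 72 such tests 7 marked a library, where chance would give about 3.6 if the tests were independent. They were not, since shares of a gene sum to 100% and some are at or near 100% throughout. No excess over chance is therefore read from this count. Syn1 in AM6545 library 3 was at 257 CPM, against 421 to 428 in the other 4 AM6545 libraries. Syn3 in vehicle library 4 was at 5.69 CPM, against 2.82 to 3.61 in the others. In AM6545 library 5 Sv2b-202 held 67.2% of Sv2b, against 47.4% to 51.5% in the others, and Sv2b-201 accordingly held 32.01%, against 48.2% to 52.5%. Syn2-205 held 29.7% of Syn2 in AM6545 library 2, against 27.1% to 27.8% in the others. Sv2a-201 held 99.9% of Sv2a in AM6545 library 4, against 100% in the others. Slc17a6-201 held 98.4% of Slc17a6 in vehicle library 2, against 99.7% to 100% in the others.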

How the results depend on the processing

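No member, ratio or transcript share passed an adjusted threshold under any alternative run. For ratios and shares this says little. With a smallest exact permutation p of 0.00794, a single ratio among 11 or share among 15 could not pass alone after adjustment. With the replicate block, they had a sign-flip test of same-numbered differences, whose smallest p is 0.0625, so none could pass. Over all genes 0 were called with each scaling, filter and tool and with the replicate block, and 0 to 1 with a library left out (1 without vehicle library 3 and 1 without AM6545 library 3). Over all transcripts, 1 was called, against 11 with DESeq2, 0 with limma-voom, 0 with at least 10 counts in every library, 0 with the replicate block and 0 to 4 with a library left out (4 without AM6545 library 3); the cause was not tested. Same-numbered libraries had correlations of -0.19 to 0.39 between their deviations, and 2 of 5 correlated best with their own number, so the numbers were not taken to pair them. The Slc17a6 log2 fold change, near 0, was 0.0022 with total count scaling, and the Slc17a6-201 share difference was -0.017 percentage points with no division by length. The transporter ratio difference ran from -0.236 to -0.0079 (log2) with a library left out, the Syn1 log2 fold change from 0.19 to 0.41, that of Slc17a8 from -0.26 to -0.0021, the log2 Syn1 to Syn2 difference from 0.13 to 0.38 and the Sv2b-202 share difference from 6.09 to 15.0 percentage points. Values near 0 changed sign with a library left out: the log2 fold changes of Slc17a7 (-0.051 to 0.098), Slc17a6 (-0.14 to 0.11), Syn2 (-0.028 to 0.14), Syn3 (-0.15 to 0.15), Syp (-0.0060 to 0.092) and Sv2b (-0.085 to 0.082); the log2 ratios of synapsins to Syp (-0.045 to 0.194), Slc17a7 to Syp (-0.050 to 0.044) and Slc32a1 to Gad1 plus Gad2 (-0.194 to 0.060); and, in percentage points, the shares of Slc17a7 (-0.020 to 0.187), Slc17a6 (-0.163 to 0.038), Syn1-202 (-0.366 to 2.55), Syn1-201 (-2.55 to 0.366), Slc17a7-201 (-0.331 to 0.033), Syn2-201 (-0.939 to 0.672) and Slc17a6-201 (-0.089 to 0.303). The number of correlated pairs, 4, was 3 with total count scaling and 0 without vehicle library 1, an alternative added after seeing the data, as was pooling Syn2-202 with Syn2-203. Slc17a8, Slc32a1 and Syn3 rest on 19 to 48, 42 to 58 and 50 to 139 counts per library, which limits their precision.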
